A study of Mus musculus with 12 samples.

Results

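Mammalian cells make cholesterol from acetyl-CoA by the mevalonate pathway, and take it up from lipoproteins in the medium. When sterols in the endoplasmic reticulum run low, SREBP transcription factors are released and raise the genes of synthesis and uptake together, while INSIG proteins hold SREBP back when sterols are plentiful. In the nervous system cholesterol is largely made locally, by glia and by neurons, since lipoproteins of the blood do not cross into the brain. Here 8 genes of this system were followed, chosen by name: Hmgcs1, Fdps, Fdft1, Sqle, Lss, Cyp51 and Dhcr7, which encode enzymes of synthesis, and Insig1, the sterol-regulated brake. No uptake gene is among the 8. They are 8 of the 17274 genes with a symbol on the array, and all of them were found, each through 1 mouse transcript with 3 probes.

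RNA was measured in 3 immortalized mouse lines grown without treatment in serum-containing medium with antibiotics. They are AtT20, known as a line from a pituitary corticotroph tumour, BV2, a microglial line that was grown in conditions meant to favour a resting state, and N18, a neuroblastoma line. Each group holds 4 plates of 1 line, grown and extracted separately and hybridized to 1 single-color array per plate, so the spread between plates is that of 1 line in culture, and a line stands for itself and not for its cell type. RNA was labelled from the same mass of total RNA, so more transcript per cell and more cells that express it cannot be told apart. A slide of this design carries 4 arrays, and the plates on each slide are not known here, so an effect of slide and one of line cannot be told apart.

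The deposited values are log2 intensities of 72000 probes, with no normalization between arrays found in them. A level is given here as the log2 of the mean intensity of a gene's probes on a plate minus the mean of 10 seminal proteins on that plate, which stand for genes that are not expressed. A gene was called detected in a line when its level, averaged over the 4 plates, was above a threshold of 2 SD of those controls (averaged likewise), which came to 0.37 for AtT20, 0.56 for BV2 and 0.74 for N18. The plates labelled AtT20 stood apart. The interquartile range over their probes was 0.38 to 0.78, against 1.28 to 1.73 for BV2 and 1.91 to 2.21 for N18, and their seminal proteins lay at 10.77 to 11.47, against 9.36 to 9.79 and 9.41 to 9.73. The corticotroph genes Pomc, Tbx19 and Pcsk1 had levels of 0.29, 0.02 and 0.14 on these plates, below the threshold. Of 8 listed corticotroph genes 2 were detected there, and the summed level of the 8 ran from 2.04 to 4.35 there, from 1.94 to 2.33 in BV2 and from 8.03 to 9.12 in N18. Of the 11 microglial genes matched, 8 were detected in BV2 (Ptprc at 3.85 and Csf1r at 4.70), 1 in AtT20 and 3 in N18, and of 14 neuroblastoma genes 12 were detected in N18 (Gap43 at 5.05), 8 in AtT20 and 6 in BV2. The part of the array range or of the identity of the cells in the AtT20 comparisons was not tested.

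SREBP works at promoters beside NF-Y and Sp1, so promoter sequence is shown first. The 250 bases before the start site are given from RefSeq (GRCm38.p6) for Hmgcs1 and Dhcr7, the genes that passed the test between N18 and BV2, and for the regulator Insig1, each read in the direction of the gene. Capitals mark matches on either strand to TCACNCCAC, a core of the sterol regulatory element, to CCAAT, the box bound by NF-Y, and to GGGCGG, the box bound by Sp1. None of these matches overlaps another.
Hmgcs1, chr13:119690101-119690350, plus strand: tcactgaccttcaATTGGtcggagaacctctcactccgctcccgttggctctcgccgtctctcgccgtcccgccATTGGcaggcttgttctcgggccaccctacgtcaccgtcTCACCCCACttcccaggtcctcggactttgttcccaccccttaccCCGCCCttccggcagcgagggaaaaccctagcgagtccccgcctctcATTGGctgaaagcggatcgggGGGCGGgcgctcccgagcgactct
Dhcr7, chr7:143822917-143823166, plus strand, the first of 3 start sites: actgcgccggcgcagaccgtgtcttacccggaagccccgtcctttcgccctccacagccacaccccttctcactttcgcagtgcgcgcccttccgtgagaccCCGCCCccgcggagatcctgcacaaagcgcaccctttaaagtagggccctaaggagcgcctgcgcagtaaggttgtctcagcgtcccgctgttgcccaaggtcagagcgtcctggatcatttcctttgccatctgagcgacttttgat
Insig1, chr5:28071162-28071411, plus strand: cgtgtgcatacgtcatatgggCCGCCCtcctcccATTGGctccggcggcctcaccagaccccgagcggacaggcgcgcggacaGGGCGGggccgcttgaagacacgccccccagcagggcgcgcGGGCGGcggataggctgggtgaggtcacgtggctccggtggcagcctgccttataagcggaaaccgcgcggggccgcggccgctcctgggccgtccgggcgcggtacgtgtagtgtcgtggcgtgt
TCACNCCAC was found once in Hmgcs1, with its first base at position -137 from the start, and 1.05% of 32851 promoters of this length hold it. It was in 1 of the 5 listed genes whose promoter is in the table, which are these 3 with Lss and Cyp51. CCAAT was in all 5, and in 33.8% of all promoters. GGGCGG was also in all 5, and in 32.7% of all promoters. A gene counts here if any of its start sites holds a match, and Dhcr7 has 3 start sites. The shares are of single promoters, so counts and shares are in unlike units and cannot be compared directly. The first Dhcr7 window holds GGGCGG and no CCAAT, which lies at the third start site of that gene. A match is a string of letters and no evidence of binding. Sqle, Fdft1 and Fdps are named only, without sequence.

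Detection differed by line. On the plates labelled AtT20, 3 of the 8 genes were detected, namely Hmgcs1, Fdps and Insig1, against 35.0% of all 25128 features (genes, and targets without a symbol). In BV2 the count was 7 of 8, all but Cyp51, against 53.3% of all features. In N18 it was 8 of 8, against 55.4%. Taken plate by plate, 9 of 32 values were above the threshold of their own plate in AtT20, 27 of 32 in BV2 and 30 of 32 in N18. By probe, 5 of 24 probes were above the threshold in AtT20, 19 in BV2 and 20 in N18. The counts by plate and by probe have no share of all features beside them. Values of the same gene or the same plate are also not independent. These counts therefore describe the 8 genes and do not set them apart from other genes. The Insig1 call in AtT20 and the Cyp51 call in N18 each rested on 1 probe.

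**Figure D1:**
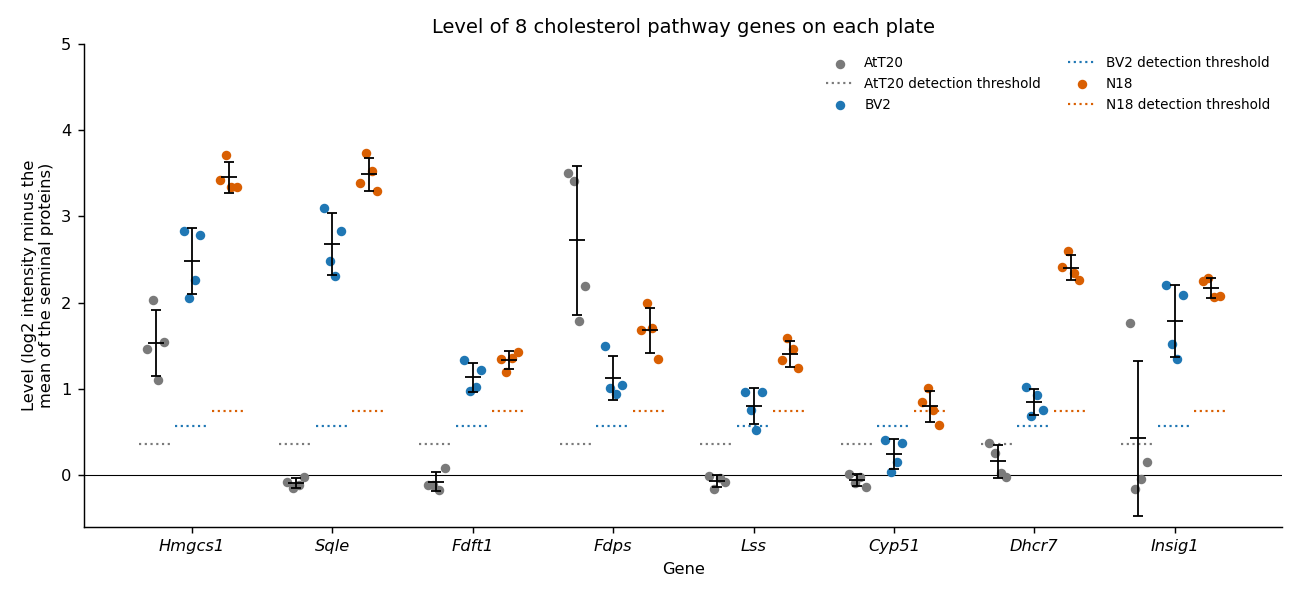
Level of the 8 genes on every plate, as log2 intensity above the mean of the seminal proteins of that plate. Points are plates, black bars the mean and SD of 4 plates, and dotted lines the detection threshold of each line. Sqle, Fdft1, Lss and Cyp51 lie at or near 0 on the AtT20 plates, Fdps is highest there, and Dhcr7 is at 2.26 to 2.60 on the N18 plates.

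Line differences are given below as log2 differences after quantile normalization of the 12 arrays, tested with limma, with p-values adjusted over the 25128 features. A large share of all features was called in each comparison. In BV2 against AtT20, 26.6% of all features were called higher and 47.0% lower. In N18 against AtT20 the shares were 27.8% and 48.6%, and in N18 against BV2 19.0% and 21.9%. Of the 8 genes, 3 were called higher and 2 lower in BV2 than in AtT20 (1 and 4 without normalization, where 11.7% and 74.7% of all features were called), 4 higher and 1 lower in N18 than in AtT20, and 2 higher and 0 lower in N18 than in BV2, where at an adjusted p of 0.05 or more the other 6 were left undecided. The median difference of the 8 genes was 0.32, 0.63 and 0.15 in these comparisons, beside -0.23, -0.25 and -0.06 for all features.

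The scale matters for direction, because it moves all features. Relative to the seminal proteins the median of all features was 0.28, 0.54 and 0.18 in the same order, without normalization -1.08, -0.85 and 0.15, and with the array median subtracted -0.16, -0.17 and -0.08. Relative to the seminal proteins all 8 genes were called in both comparisons with AtT20, 7 higher and 1 (Fdps) lower in each. The background on that scale was 50.4% higher and 17.6% lower for BV2, and 60.7% higher and 16.3% lower for N18. On the same scale 5 genes were called higher in N18 than in BV2, namely Hmgcs1, Sqle, Lss, Cyp51 and Dhcr7, against 38.8% of all features. Set against the median of all features, 6, 7 and 6 of the 8 genes lay above it in the 3 comparisons after quantile normalization, and 7, 7 and 8 relative to the seminal proteins.

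**Figure D2:**
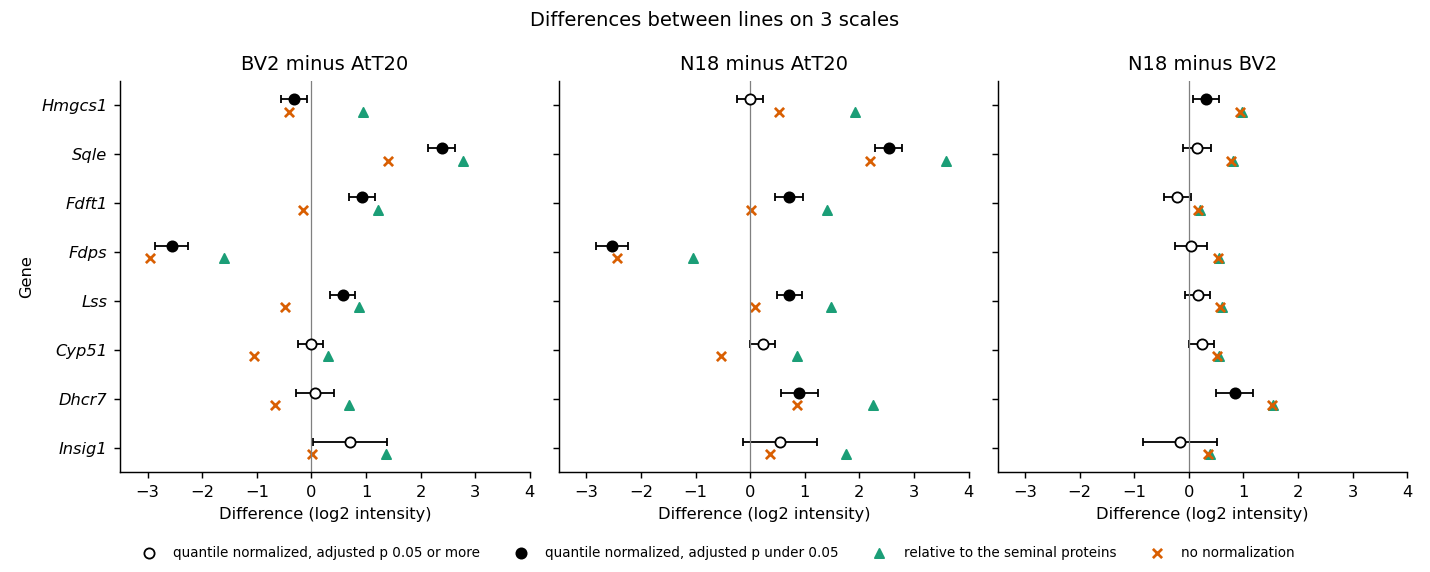
Differences between lines for the 8 genes in log2 intensity, first line minus second. Circles are quantile normalized values with 95% confidence intervals, filled at an adjusted p under 0.05, triangles are values relative to the seminal proteins, and crosses are unnormalized. Sqle is higher and Fdps lower than in AtT20 on all 3 scales, and Dhcr7 is 0.84 to 1.55 higher in N18 than in BV2.

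Hmgcs1 (chromosome 13, 119690351 to 119708260 of GRCm38.p6, the build of all gene positions given here) encodes the cytosolic HMG-CoA synthase at the entry of the mevalonate pathway. Its level was 1.46, 2.03, 1.10 and 1.54 on AtT20 plates 1 to 4. On the BV2 plates it was 2.83, 2.05, 2.26 and 2.79. On the N18 plates it was 3.42, 3.71, 3.34 and 3.34. Relative to the seminal proteins the lines therefore did not overlap, with N18 above BV2 and BV2 above AtT20, although the lowest BV2 plate and the highest AtT20 plate were close. In N18 the gene was 0.32 higher than in BV2 (95% confidence interval 0.08 to 0.55; adjusted p = 0.0307). The sign held under 10 of 10 alternatives, which gave 0.32 to 0.97, but the call was lost on leaving out any of 7 plates (BV2 plates 1, 2 and 3 and each N18 plate), with adjusted p up to 0.0877. The AtT20 comparisons of Hmgcs1 changed with the scale. BV2 was 0.32 lower than AtT20 after quantile normalization (difference -0.32, adjusted p = 0.0166) but 0.95 higher relative to the seminal proteins, and without BV2 plate 2 the adjusted p was 0.0504. N18 and AtT20 had the same quantile normalized mean of 12.63 (interval of the difference -0.24 to 0.23), while N18 was 1.92 higher relative to the seminal proteins. Each of the 3 probes was lowest in AtT20 on the seminal scale. The first lay at -0.21 there, 1.46 in BV2 and 2.56 in N18, the second at 2.30, 3.43 and 4.31, and the third at 1.46, 1.66 and 2.80. After quantile normalization, the scale of the test, the probes went different ways. In the same order BV2 minus AtT20 was 1.51, -0.24 and -1.13, and N18 minus AtT20 was 1.95, 0.01 and -0.68.

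Fdps (chromosome 3, 89093588 to 89101967) encodes farnesyl diphosphate synthase, which supplies both sterols and the lipid anchors of prenylated proteins. It was the gene of the 8 that was called lower in both other lines than in AtT20. Its level was 3.50, 3.41, 1.79 and 2.19 on the AtT20 plates. On the BV2 plates it was 1.5, 1.01, 0.94 and 1.04. On the N18 plates it was 1.68, 1.99, 1.70 and 1.35. The AtT20 plates were all above the BV2 plates, while AtT20 plate 3 overlapped the N18 plates. After quantile normalization BV2 was lower by a difference of -2.56 (SE 0.14, adjusted p = 1.19e-10) and N18 by -2.53 (SE 0.14, adjusted p = 1.32e-10). Both calls held under 10 of 10 alternatives and without each plate, but the size moved. It was -1.60 and -1.04 relative to the seminal proteins, and -1.04 and -0.98 without the brightest probe, a setting chosen after seeing the data. The second probe carried most of it, with a level of 3.95 in AtT20, 1.10 in BV2 and 1.55 in N18. The third probe stood at 1.74, 1.84 and 2.54 in the same order, and the first was below 0 in each line. After quantile normalization, the scale of the test, the third probe was also lower than in AtT20, by -1.19 in BV2 and -1.13 in N18. The second was at -3.77 in both on that scale, and the first at -0.16 and -0.08. Between N18 and BV2 the difference was 0.04 (95% confidence interval -0.26 to 0.34; adjusted p = 0.867).

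**Figure D3:**
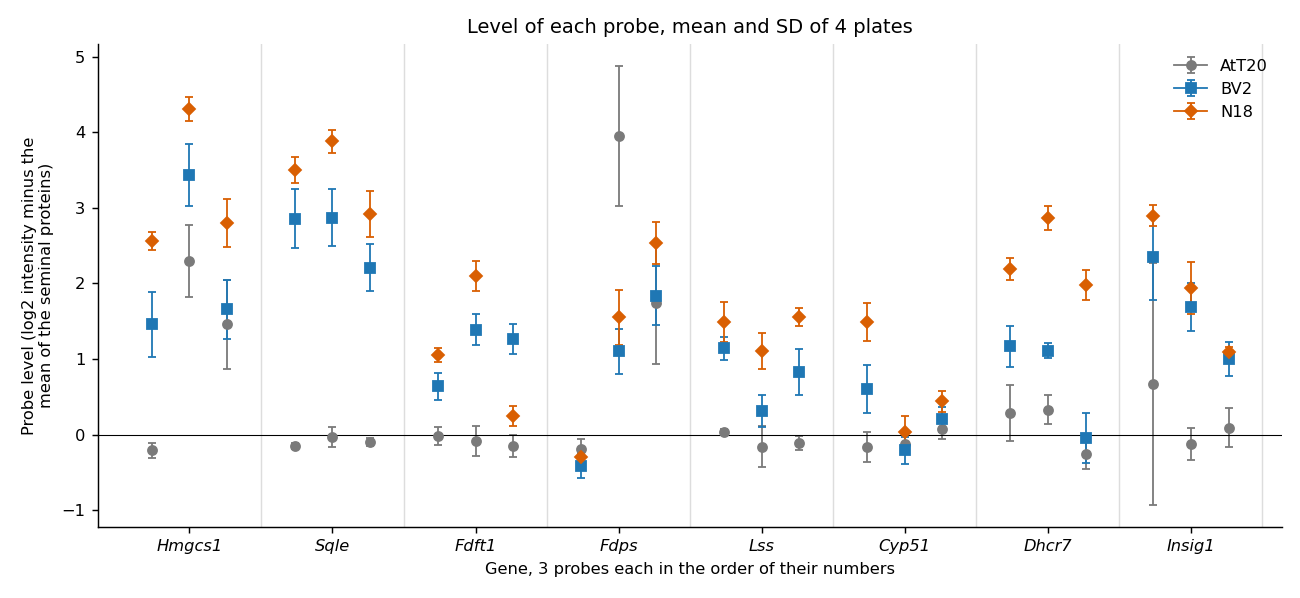
Mean level of each of the 3 probes of a gene, with the SD of 4 plates, as log2 intensity above the mean of the seminal proteins. Levels of different probes are not comparable with each other. The 3 Sqle probes separate AtT20 from both other lines, the second Fdps probe is higher in AtT20 than in both other lines, and the third Fdft1 probe is lower in N18 than in BV2.

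Fdft1 (chromosome 14, 63145150 to 63181687) encodes squalene synthase, the first enzyme committed to sterols. On the AtT20 plates its level was -0.11, -0.12, -0.17 and 0.08, that is, at the seminal proteins. It was 1.33, 0.97, 1.02 and 1.22 in BV2, and 1.35, 1.19, 1.36 and 1.43 in N18. The BV2 and N18 plates overlapped, and all of them were above the AtT20 plates. Quantile normalized differences from AtT20 were 0.93 for BV2 (adjusted p = 2.54e-06) and 0.71 for N18 (adjusted p = 3.89e-05). Without normalization these became -0.15 and 0.02 and were not called, on a scale where the median of all features was -1.08 and -0.85. Because AtT20 was not above its threshold, these differences are not measured on both sides, and no lower bound on the fold held on all 3 scales. N18 against BV2 gave -0.21 (95% confidence interval -0.46 to 0.04; adjusted p = 0.168) and 0.20 relative to the seminal proteins. The probes went different ways. The first and the second were at 1.05 and 2.10 in N18 and at 0.64 and 1.39 in BV2, and the third was at 0.25 in N18 and 1.27 in BV2.

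Sqle (chromosome 15, 59315092 to 59331193) encodes squalene epoxidase, a rate-limiting oxygen-using step after squalene. It had the largest rise over AtT20 among the 8 genes in both other lines, after quantile normalization. Its level was -0.08, -0.15, -0.12 and -0.02 in AtT20, 3.10, 2.48, 2.31 and 2.83 in BV2, and 3.39, 3.73, 3.53 and 3.30 in N18. No AtT20 plate reached the threshold, and every plate of the other lines was far above it. BV2 was 2.39 higher than AtT20 (SE 0.12, adjusted p = 2.99e-11) and N18 2.54 higher (SE 0.12, adjusted p = 1.4e-11). Both calls held under 10 of 10 alternatives and without each plate. Since AtT20 gives only an upper limit, the fold was also bounded from its threshold, as the smallest bound over 3 scales, and came to at least 1.9-fold higher in BV2 and at least 2.5-fold higher in N18. All 3 probes showed it, with levels of -0.15 to -0.03 in AtT20, 2.21 to 2.87 in BV2 and 2.92 to 3.88 in N18. N18 against BV2 gave 0.15 (95% confidence interval -0.10 to 0.40; adjusted p = 0.326), and 0.81 relative to the seminal proteins (adjusted p = 0.0031), where the plates did not overlap.

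Lss (chromosome 10, 76531565 to 76557139) encodes lanosterol synthase, which closes the sterol rings. On the AtT20 plates its level was -0.01, -0.16, -0.03 and -0.08, below the threshold. It was 0.96, 0.76, 0.52 and 0.96 in BV2, where plate 3 fell below the threshold of the line, and 1.34, 1.59, 1.46 and 1.24 in N18. The 3 lines did not overlap on this scale. Against AtT20, which gives only an upper limit here too and for which no bound on the fold held on all scales, BV2 was 0.57 higher (adjusted p = 0.000137) and N18 0.72 higher (adjusted p = 1.02e-05), but without normalization the BV2 difference was -0.49 (adjusted p = 0.0167) and that of N18 0.09 (adjusted p = 0.684). For N18 against BV2 the difference was 0.16 (95% confidence interval -0.07 to 0.38; adjusted p = 0.26), and it was 0.61 relative to the seminal proteins (adjusted p = 0.000246).

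Cyp51 (chromosome 5, 4080674 to 4104697) encodes lanosterol 14-alpha-demethylase, a cytochrome P450. It was the one gene of the 8 that was below the threshold in both AtT20 and BV2. The AtT20 plates were at 0.01, -0.09, -0.02 and -0.14, the BV2 plates at 0.41, 0.04, 0.15 and 0.37, and the N18 plates at 0.85, 1.01, 0.75 and 0.58. All N18 plates were above all BV2 plates, and the mean of the N18 plates, 0.80, passed the threshold of 0.74 narrowly. Detection in N18 was lost under 6 alternatives, among them the median of probes, 3 SD and at least 2 probes above the threshold, and also without N18 plate 2. The first probe alone was above the threshold, at 1.49 in N18 and 0.60 in BV2. No comparison of Cyp51 was called. N18 was 0.24 above BV2 (95% confidence interval 0.01 to 0.47; adjusted p = 0.089), with the sign kept under 10 of 10 alternatives and the call made under 4 of them. Against AtT20 the differences were -0.01 for BV2 (adjusted p = 0.907) and 0.23 for N18 (adjusted p = 0.0689), and both turned sign with the scale.

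Dhcr7 (chromosome 7, 143823167 to 143848410) encodes 7-dehydrocholesterol reductase, which makes cholesterol in the last step. It had the largest difference between N18 and BV2 among the 8 genes. Its level was 0.37, 0.26, 0.02 and -0.02 in AtT20, 1.02, 0.69, 0.93 and 0.75 in BV2, and 2.41, 2.60, 2.34 and 2.26 in N18. On this scale the lines did not overlap, and AtT20 was below its threshold. After quantile normalization the AtT20 and BV2 plates overlapped. N18 was 0.84 higher than BV2 (95% confidence interval 0.50 to 1.18; adjusted p = 0.000514). The sign held under 10 of 10 alternatives and without each plate, the call under 9 of 10, and the difference was 1.55 relative to the seminal proteins. With the median of probes it fell to 0.47 (adjusted p = 0.137). All 3 probes were higher in N18, at 2.19, 2.87 and 1.98, than in BV2, at 1.17, 1.11 and -0.05. Against AtT20, N18 was 0.90 higher (adjusted p = 9.03e-05), at least 1.2-fold by the bound, and the call held under 10 of 10 alternatives. BV2 gave 0.07 against AtT20 (95% confidence interval -0.28 to 0.41; adjusted p = 0.724), with 0.69 relative to the seminal proteins, and with -0.67 (adjusted p = 0.00187) when the arrays were not normalized.

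Insig1 (chromosome 5, 28071412 to 28078662) encodes the endoplasmic reticulum protein that retains the SREBP escort SCAP and marks HMG-CoA reductase for degradation, and is itself a target of SREBP. Its level was 1.76, -0.16, -0.05 and 0.15 in AtT20, 2.20, 1.52, 1.35 and 2.09 in BV2, and 2.25, 2.29, 2.07 and 2.08 in N18. AtT20 plate 1 stood alone, through the first of the 3 probes, which had an SD of 1.60 over the AtT20 plates. Without that plate the AtT20 level was -0.02 and the gene was not detected there. BV2 was 0.71 higher than AtT20 (95% confidence interval 0.03 to 1.39; adjusted p = 0.0547) and N18 0.55 higher (95% confidence interval -0.13 to 1.23; adjusted p = 0.129), which did not pass. The BV2 difference was called under 8 of 10 alternatives, from 0.71 to 1.37 where called, and that of N18 under 5 of 10. Without AtT20 plate 1 both passed, at 1.23 (adjusted p = 3.67e-06) and 1.06 (adjusted p = 1.59e-05). N18 and BV2 overlapped, and their difference was -0.17 (95% confidence interval -0.84 to 0.51; adjusted p = 0.716). The fit pools the spread of all 12 arrays, so this interval also holds that of the AtT20 plates. Their SD after quantile normalization was 0.98, against 0.21 in BV2 and 0.05 in N18. The difference was also not called with only the 8 arrays of the pair, or without any single plate (lowest adjusted p = 0.355).

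How far the 8 genes varied together depended on the scale and on the plates taken. Over the 12 plates, with each gene taken as its deviation from the mean of its line, the 28 pairs of genes had a median correlation of 0.11 after quantile normalization (lowest -0.77, highest 0.81). Relative to the seminal proteins the median was 0.45 (lowest -0.16, highest 0.90), where every gene of a plate shares the same subtracted value. Over the 8 plates of BV2 and N18 alone the median was 0.22 after quantile normalization and 0.74 relative to the seminal proteins, with 19 and 27 of the 28 pairs above 0. Over the 4 AtT20 plates alone the medians were -0.02 and 0.10, with 14 and 15 pairs above 0. No value for pairs of other genes stands beside these, so they do not set the 8 genes apart. These are descriptions, and the genes of a plate share an array. The mean of the 8 genes, each centred over the 12 plates, was -0.30 to 0.03 on the AtT20 plates, -0.08 to 0.09 on BV2 and 0.11 to 0.28 on N18. Among 12129 genes outside the pathway that were detected in at least 1 line, those whose quantile normalized level followed this mean most closely over the 12 plates were Dvl1 (r = 0.985), Rfwd3 (r = 0.976), Rbak (r = 0.966), Uggt1 (r = 0.96) and Agpat3 (r = 0.96). Dvl1, a Wnt signaling protein, had a mean level of -0.11 in AtT20, 0.85 in BV2 and 2.05 in N18.

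The rest of the pathway was read from a list of 45 genes that includes the 8. In AtT20 18 of the 45 were detected, and in BV2 and N18 37 each, where 35.0%, 53.3% and 55.4% of all features were detected in the same order. Of the 21 genes of synthesis, 7 were detected in AtT20, 17 in BV2 and 18 in N18, and N18 against BV2 had 6 higher and 5 lower, where 19.0% of all features were called higher and 21.9% lower. On the seminal scale 13 of the 21 were higher and 2 lower, where 38.8% and 13.1% of all features were called. Of the 9 genes of uptake and intracellular transport, 3, 7 and 8 were detected in AtT20, BV2 and N18, and 2 were higher and 6 lower in N18 than in BV2 (2 and 4 relative to the seminal proteins). Of the 8 genes of efflux, storage and oxidation, 0 were higher and 5 lower in N18 than in BV2 (0 and 4 relative to the seminal proteins), and of the 7 of sensing and activation 4 were higher and 1 lower (4 and 0), beside the same shares of all features. Over the 37 genes that are not among the 8, 10 were higher and 17 lower in N18 than in BV2, with a median of -0.29 beside -0.06 for all features. The split turned with the scale, to 14 higher and 10 lower relative to the seminal proteins. Against AtT20 the same 37 gave 16 higher and 10 lower in BV2, where 26.6% and 47.0% of all features were called, and 13 and 13 in N18, where the shares were 27.8% and 48.6%. These splits also moved with the scale. Relative to the seminal proteins they were 28 and 1 in BV2, where 50.4% and 17.6% of all features were called. In N18 they were 28 and 4 on that scale, where the shares were 60.7% and 16.3%. Without normalization they were 10 and 16 in BV2 (11.7% and 74.7% of all features) and 11 and 12 in N18 (19.9% and 63.1%).

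**Figure D4:**
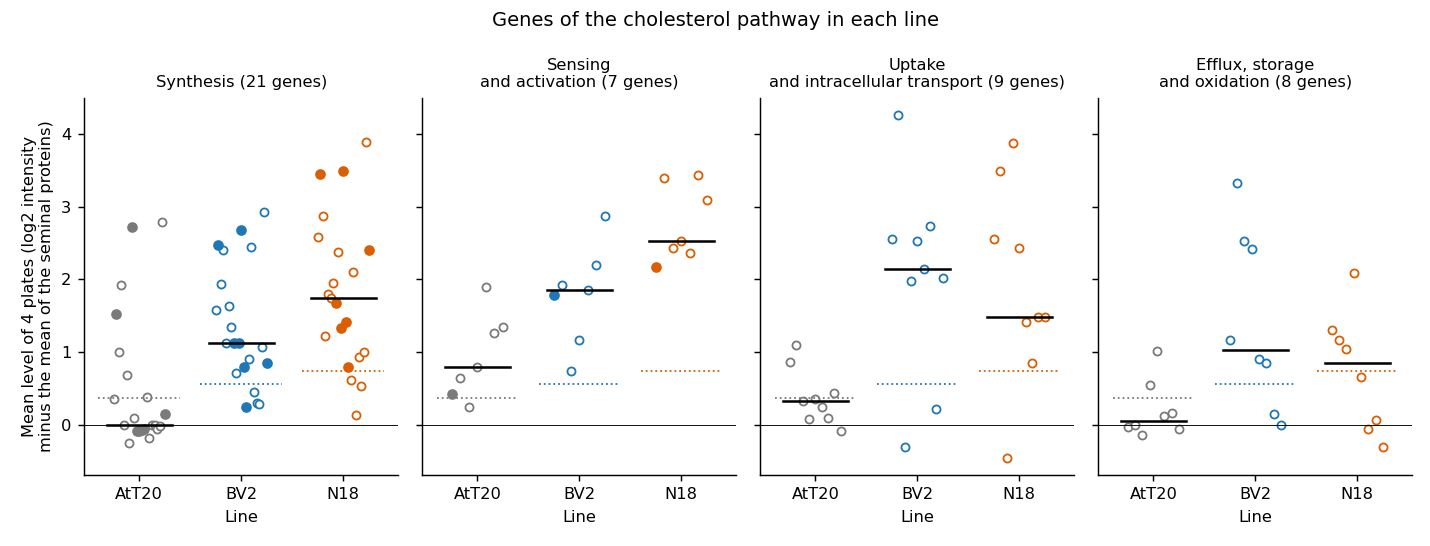
Mean level over 4 plates of each gene of the pathway list in the 3 lines, in log2 intensity above the mean of the seminal proteins, in 4 groups of genes. Filled points are the 8 genes described here, open points the others, black bars the median of the group and dotted lines the detection threshold. The median of the synthesis genes is 0.00 in AtT20, 1.13 in BV2 and 1.74 in N18, and that of the uptake genes is higher in BV2, at 2.14, than in N18, at 1.49.

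Other genes of synthesis went both ways between N18 and BV2. Mvk, mevalonate kinase, had a level of 1.92 in AtT20, 2.4 in BV2 and 1.22 in N18, and was lower in N18 than in BV2 (difference -1.53, adjusted p = 5.04e-07) and in AtT20 (difference -2.18, adjusted p = 2.09e-09), the latter at -0.70 relative to the seminal proteins. Msmo1, the methylsterol monooxygenase that follows Cyp51, was at -0.18, 2.44 and 2.10 in AtT20, BV2 and N18. It was at least 1.6-fold higher in BV2 than in AtT20, and N18 was below BV2 (difference -0.89, adjusted p = 8.93e-05), a call lost relative to the seminal proteins (-0.34). Tm7sf2, a sterol reductase, was also lower in N18 (difference -0.47, adjusted p = 0.00221), though not detected in N18 (level 0.62), and that call was lost on the same scale (-0.28). Acat2, a cytosolic thiolase, was 0.35 higher in N18 (adjusted p = 0.0328) and kept the call on leaving out 6 of the 12 plates, one at a time.

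Srebf1, which encodes SREBP-1, had levels of 0.25, 0.74 and 2.43 in AtT20, BV2 and N18, and was 0.98 higher in N18 than in BV2 (adjusted p = 8.45e-06). Among genes of uptake, the lipoprotein receptor Scarb1 was at 0.08, 1.98 and 3.87, and was 1.26 higher in N18 than in BV2 (adjusted p = 2.47e-06) and at least 3.4-fold higher in N18 than in AtT20. Stard4, a sterol carrier, was not detected in BV2 (level 0.22) and was at 1.49 in N18, at least 1.3-fold higher (adjusted p = 0.000859). Lipa, the lysosomal acid lipase, was lower in N18 (difference -2.05, adjusted p = 1.4e-10), with levels of 2.74 in BV2 and 0.85 in N18. Lrp1, a large endocytic receptor, was lower in N18 by a difference of -1.55 (adjusted p = 8.83e-08). Npc1, which exports cholesterol from lysosomes, was at 2.53 in BV2 and 2.43 in N18, and its quantile normalized difference of -0.68 (adjusted p = 0.00217) was -0.10 and not called relative to the seminal proteins.

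Both Abcg1 and Soat1, of export and storage, were higher in BV2 than in N18. Abcg1, a sterol exporter, had levels of 0.00 in AtT20, 3.32 in BV2 and 1.17 in N18, with N18 below BV2 (difference -2.45, adjusted p = 7.14e-09) and BV2 at least 3.0-fold higher than AtT20. Soat1, which esterifies cholesterol for storage, was at -0.14, 2.53 and 1.05, with N18 below BV2 (difference -1.71, adjusted p = 1.58e-08) and BV2 at least 1.7-fold higher than AtT20. Nr1h3, the oxysterol receptor LXR-alpha, differed from them in that its level was not higher in BV2 than in AtT20. It was at 1.01 in AtT20, 0.90 in BV2 and 0.66 in N18, the last below the threshold, and was lower in N18 than in AtT20 by a difference of -1.72 (adjusted p = 4.72e-10), which was -0.35 relative to the seminal proteins. Its N18 against BV2 difference was -0.45 (adjusted p = 0.00289) and was not called relative to the seminal proteins (-0.24). Nr1h2, which encodes LXR-beta, was at 0.55 in AtT20, 2.42 in BV2 and 2.09 in N18. BV2 was 0.79 higher than AtT20 for Nr1h2 (adjusted p = 2.03e-06). N18 was below BV2 (difference -0.86, adjusted p = 2.44e-06), a call lost relative to the seminal proteins (-0.32). The summed level of the 11 microglial genes was highest in BV2, at 27.86 to 33.83. It was 0.36 to 2.18 in AtT20 and 4.28 to 5.82 in N18. Not all of these genes were clearly higher in BV2 than in N18. Trem2 was at 1.23 in BV2 and 1.52 in N18, Aif1 at 0.30 and 0.53, C1qa at 0.55 and 0.55, and Cx3cr1 at 0.40 and 0.39. The other matched microglial genes were higher in BV2. The part of the microglial genes in the result was not tested.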

How the data were processed

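RNA of 4 plates each of AtT20, BV2 and N18 cells was measured on NimbleGen mouse 4-plex arrays. The deposited values are log2 intensities of 72000 probes, which the authors made from the Cy3 signal of each array (NimbleScan software), with the probes separate. No other normalization is described. Probes were grouped into 25631 targets by transcript, of which 69.4% were matched to a symbol through RefSeq (coordinates GRCm38.p6, for gene positions only). The linear mean of the probes of a target was taken to log2, and targets of a gene were averaged.

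The 8 genes, the list of 45 pathway genes, the marker lists and the tests were chosen with earlier results of these data known. Detection follows the study's rule, with 10 seminal proteins as genes not expressed. Line differences were fitted over all 12 arrays on quantile normalized probes (lmFit and a trended eBayes from limma 3.58.1, R 4.3.3). Benjamini-Hochberg adjustment ran over 25128 features, and a gene was called at an adjusted p under 0.05. Bounds on folds set the bright line's mean against the threshold of the dim line, as the smallest over quantile normalized, seminal and unnormalized scales, rounded down. Of the other pathway genes, those called in all 3 comparisons or among the 3 largest differences of a comparison were to be named, and as similar genes the 5 with the highest correlation. Some genes of the lists are not reported singly. The line comparisons were repeated under 9 other settings, under 1 more chosen after seeing the data (without the brightest probe of each target), and with each of 12 plates left out. The fit was tested on simulated data. The 4 arrays per line limit the precision. Tables and figures used Python 3.11.15, numpy 2.4.6, pandas 2.3.3 and matplotlib 3.10.9.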

Additional observations from a re-analysis of the deposited data

Results flagged for a closer look

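The level of Insig1 on AtT20 plate 1 was 1.76, while the other AtT20 plates were at -0.16 to 0.15. It was the 1 of 24 groups of 4 plates (8 genes in 3 lines) in which the highest or lowest plate lay further from the rest than Dixon's test allows at its usual critical value, with a ratio of gap to range of 0.838. Chance gives about 1 such group in 20. The first Insig1 probe carried it, and its cause was not tested.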

How the results depend on the processing

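The number of arrays and signal near the seminal proteins limit these results, above all in AtT20, where 5 of the 8 genes were below the threshold. Detected counts moved by at most 1 gene in any line. Of the differences of single genes, 882 of the alternative values kept direction and side of the threshold, 38 lost the call, 36 gained it and 33 changed sign. The cause of each change was not tested.

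Relative to the seminal proteins 8 genes were called in each comparison with AtT20, against 5 and 5, and with the mean of log2 probes 8 in N18 against AtT20. In N18 against BV2, 5 genes were called, all higher, without normalization, relative to the seminal proteins or with the array median subtracted (30.7%, 38.8% and 26.1% of all features higher), and 4 with only the 8 arrays of the pair, 3 higher and 1 (Fdft1, -0.26) lower (25.8% and 36.1% of all features), against 2. In BV2 against AtT20 the split was 1 higher and 4 lower without normalization, against 3 and 2. Leaving out single plates gave 1 to 3 called genes in N18 against BV2, 4 to 6 in BV2 against AtT20 and 5 to 6 in N18 against AtT20.

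Signs that changed were the following. For BV2 minus AtT20, relative to the seminal proteins, Hmgcs1 was 0.95 and Cyp51 0.30. With the array median subtracted Hmgcs1 was 0.51. With the mean of log2 probes Hmgcs1 was 0.05 and Cyp51 0.02, and with the median of probes Cyp51 was 0.06. Without normalization Fdft1 was -0.15, Lss -0.49 and Dhcr7 -0.67. Leaving out single plates, Cyp51 ran from -0.09 to 0.09 and Dhcr7 from -0.09 to 0.26. For N18 minus AtT20, Hmgcs1 was 0.53 without normalization, 1.92 relative to the seminal proteins, 1.21 with the array median subtracted, 0.42 with the mean of log2 probes and 0.03 without the brightest probe, and ran from -0.07 to 0.05 without single plates. Cyp51 was -0.53 without normalization and -0.21 without the brightest probe. For N18 minus BV2, Sqle was -0.0047 and Fdps -0.00099 with the median of probes, and Fdps ran from -0.02 to 0.10 without single plates. Without normalization Fdft1 was 0.17 and Insig1 0.35, relative to the seminal proteins 0.20 and 0.38, and with the array median subtracted Insig1 was 0.12. The Insig1 level in AtT20 was -0.03 with the median of probes and -0.02 to 0.62 without single plates, the lowest without plate 1, against 0.42.

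The labels give same-numbered plates of the lines a number in common and nothing more. The correlations of the deviations of same-numbered plates were -0.11 to 0.32. They cannot tell whether such plates shared a slide, which is not known. A replicate block gave 18427, 19127 and 10108 called features, against 18495, 19192 and 10270. Under it 6 of the 8 genes were called in BV2 against AtT20, with Insig1 added (difference 0.71, adjusted p = 0.0298).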
